A study of Bos taurus with 10 samples.

Results

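ISG15 and a pair of genes of the oligoadenylate synthetase (OAS) family, OAS2 and OAS1Y, were followed in the white blood cells of 10 Holstein heifers. They were chosen by gene ID as readouts of the interferon tau response: ENSBTAG00000014707 (ISG15), ENSBTAG00000014628 (OAS2) and ENSBTAG00000039861 (OAS1Y, a copy of OAS1). These are 3 of the 27570 IDs in each count table, and all 3 passed the filter on low counts that left 14165 IDs. The tables give Ensembl IDs alone. The symbols came with the choice of genes and were not checked against an annotation of these files.

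All heifers were nulliparous and had received a fresh embryo produced by fertilisation in vitro. After diagnosis on day 21 after transfer, 5 were recorded as pregnant and 5 as non-pregnant, so both groups share the transfer itself. Each heifer gave 1 library of RNA from peripheral white blood cells. The heifers' age and the day of blood collection are not stated in the labels, and leukocyte markers were not analysed here, since the IDs were not paired with other gene names.

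In ruminants, the elongating conceptus signals its presence to the mother with interferon tau, a type I interferon secreted by the trophoblast. Type I interferons bind a shared receptor and induce a common set of interferon-stimulated genes. Interferon tau acts first on the uterus, where it prevents the loss of the corpus luteum, and it also reaches circulating leukocytes, in which ISG15, OAS and MX genes are widely used as early markers of pregnancy. The same genes respond to type I interferon from other sources.

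Library totals ran from 14146666 to 22146290 counts. The counts of the 3 genes ran from 38 (OAS2 in non-pregnant heifer 2) to 4771 (OAS1Y in pregnant heifer 5), so that counting error alone was between 1.45% and 16.2% of a value. Levels are given as CPM, the counts of a gene per 1000000 counts of its library after TMM scaling of the library sizes. They compare heifers for 1 gene, and levels of different genes are not compared, because the values are not scaled by gene length.

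ISG15 encodes a ubiquitin-like protein that is joined to other proteins during an antiviral response. In the 5 pregnant heifers, numbered 1 to 5, it stood at 56.0, 22.7, 18.3, 24.6 and 64.7 CPM. In the non-pregnant heifers it stood at 93.2 CPM in heifer 1 and at 3.53, 7.53, 5.66 and 8.77 CPM in heifers 2 to 5. Every pregnant heifer was thus above 4 of the 5 non-pregnant heifers, while non-pregnant heifer 1 had the highest level of all 10, and the groups overlapped through that animal alone. All pregnant heifers above all non-pregnant ones was found for 0.346% of the 14165 IDs, and for none of the 3 genes. Pregnant heifers had a median ISG15 of 24.6 CPM and a mean of 37.3 ± 21.4 CPM (SD, n = 5). The non-pregnant median was 7.53 CPM, and the mean was 23.7 ± 38.9 CPM (SD, n = 5).

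OAS2 is a larger member of a family of enzymes that sense double-stranded RNA and make short oligoadenylates, which activate the nuclease RNase L. Its level was 30.9, 10.5, 14.5, 14.2 and 23.2 CPM in pregnant heifers 1 to 5. It was 49.6 CPM in non-pregnant heifer 1 and 2.31, 8.24, 5.20 and 4.68 CPM in non-pregnant heifers 2 to 5. The picture was that of ISG15: non-pregnant heifer 1 was highest, and the other non-pregnant heifers all lay below the lowest pregnant one. The margin was narrow, between 8.24 CPM in non-pregnant heifer 3 and 10.5 CPM in pregnant heifer 2. With library totals alone as the scale, these heifers were nearly level at 9.05 and 9.08 CPM. That gap was smaller than the counting error of the values, 8.84% and 7.05%. The pregnant median was 14.5 CPM against a non-pregnant one of 5.20 CPM, and the means were 18.7 ± 8.30 and 14.0 ± 19.99 CPM (SD, n = 5 each).

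OAS1Y is one of several bovine copies of OAS1, the smaller enzyme of the family. Pregnant heifers 1 to 5 had 161.0, 71.5, 66.6, 117 and 257 CPM. Non-pregnant heifer 1 had 221 CPM, and non-pregnant heifers 2 to 5 had 27.8, 43.8, 31.5 and 63.0 CPM. Here pregnant heifer 5 exceeded non-pregnant heifer 1, and the gap between the lowest pregnant heifer (66.6 CPM) and non-pregnant heifer 5 (63.0 CPM) was of the order of the counting error of those values, 3.04% and 2.94%. With library totals alone as the scale, pregnant heifer 2 (61.5 CPM) fell below non-pregnant heifer 5 (66.8 CPM), so the order of the lowest pregnant and the next non-pregnant heifer in OAS1Y depends on the scaling. The pregnant median was 117 CPM against a non-pregnant one of 43.8 CPM, and the means were 135 ± 78.3 and 77.3 ± 81.2 CPM (SD, n = 5 each). In this bulk RNA, more cells that express a gene and more RNA per cell cannot be told apart.

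**Figure D1:**
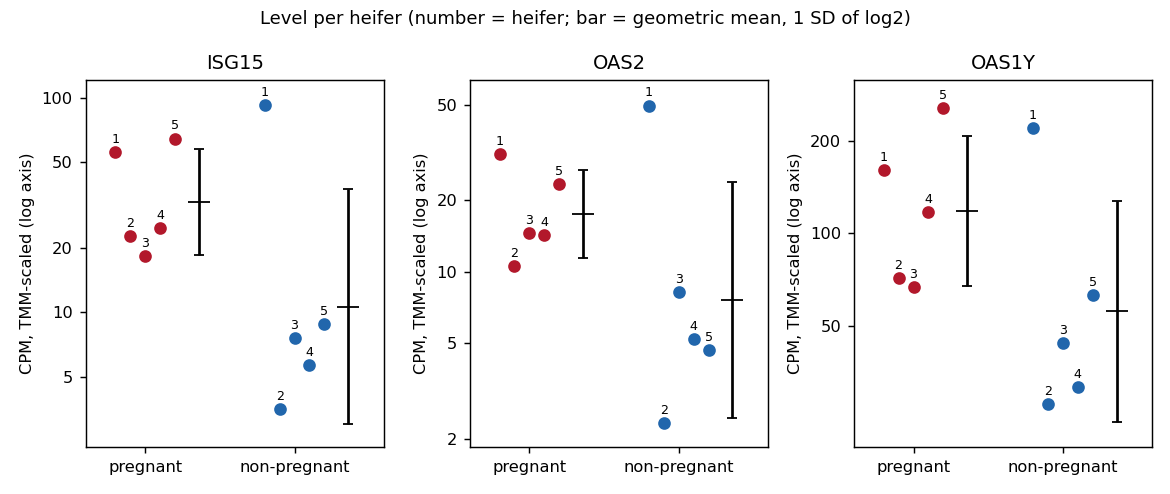
Level of ISG15, OAS2 and OAS1Y per heifer in TMM-scaled CPM (log axis), with the geometric mean and 1 SD of log2 CPM for each group of 5; numbers name the heifers. On this TMM scale, all 5 pregnant heifers lie above non-pregnant heifers 2 to 5 for each gene. With library totals alone this does not hold for OAS1Y and is nearly a tie for OAS2. Non-pregnant heifer 1, at 93.2 CPM of ISG15, lies at or near the top.

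The difference between the groups was tested in a fit of all 14165 IDs with edgeR's quasi-likelihood test. None of the 3 genes passed an adjusted p of 0.05, as no ID did (0 called, or 0%; 2.24% of IDs had an unadjusted p under 0.05 with a higher value in pregnant heifers, and none of the 3 genes was among them). DESeq2 called 5 IDs over the whole table, and none of the 3 genes was among them. For ISG15 the log2 fold change of pregnant over non-pregnant was 0.64 (SE 0.94; edgeR adjusted p = 0.999), a fold of 1.56 with a 95% interval from 0.357 to 6.84. For OAS2 it was 0.41 (SE 0.79; edgeR adjusted p = 0.999), with an interval of the fold from 0.390 to 4.51. For OAS1Y it was 0.80 (SE 0.65; edgeR adjusted p = 0.999), with an interval of the fold from 0.630 to 4.79. The unadjusted edgeR p values were 0.511, 0.617 and 0.250. The estimates were all above 0, yet the intervals leave room for a fall of over 1.5-fold as well as a rise of over 4-fold. The median log2 fold change of all IDs was 0.01, and 2.70%, 7.24% and 1.53% of IDs had a value as high as those of ISG15, OAS2 and OAS1Y.

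The fitted fold change follows the group means, and non-pregnant heifer 1 held most of the non-pregnant mean. On log2 CPM, where each heifer counts alike, the means of ISG15 were 5.03 ± 0.82 in pregnant and 3.40 ± 1.82 in non-pregnant heifers (SD, n = 5 each). The difference of 1.63 had an exact permutation p of 0.111 (two-sided, over the 252 assignments of 5 of 10 heifers; the smallest possible is 0.00794). OAS2 differed by 1.19 on log2 CPM (exact permutation p = 0.159) and OAS1Y by 1.08 (exact permutation p = 0.127). No difference passed 0.05 on either scale. limma-voom with sample quality weights gave larger log2 fold changes of 1.64, 1.27 and 1.15 for ISG15, OAS2 and OAS1Y, with limma adjusted p of 0.515, 0.533 and 0.521 (unadjusted 0.0426, 0.0489 and 0.0444). No ID was called in that fit. The share of all IDs with an unadjusted limma p under 0.05 was not counted, so the unadjusted values cannot be set against it. Over the other alternatives with all 10 heifers, adjusted p lay between 0.859 and 0.999.

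One heifer set the size of these estimates. Without non-pregnant heifer 1 the log2 fold change of ISG15 was 2.55 (SE 0.43), a fold of 5.84 with a 95% interval from 3.06 to 11.2. That of OAS2 was 1.87 (SE 0.38), a fold of 3.66 with an interval from 2.09 to 6.41, and that of OAS1Y was 1.70 (SE 0.43), a fold of 3.24 with an interval from 1.68 to 6.25. The unadjusted edgeR p was 6.79e-05, 0.000223 and 0.00246. The genes ranked 5, 13 and 74 by p among the 14405 IDs tested in that fit, but the edgeR adjusted p stayed at 0.183, 0.247 and 0.467, and 0 IDs (0%) were called. With any other heifer left out the log2 fold changes lay between 0.35 and 0.82 for ISG15, 0.14 and 0.56 for OAS2, and 0.43 and 0.97 for OAS1Y. The lowest edgeR p among those 9 fits was 0.194, and the adjusted p ranged from 0.821 to 0.9999.

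Without non-pregnant heifer 1, all pregnant heifers exceeded all remaining non-pregnant heifers in all 3 genes on the TMM scale, which held for 1.21% of the IDs in that fit. A log2 fold change above 1 was found for the 3 genes and for 1.57% of IDs, and an unadjusted p under 0.05 with a higher value in pregnant heifers for the 3 genes and for 3.76% of IDs. The 3 genes varied together, so these are not separate observations. Non-pregnant heifer 1 is singled out by the levels of these genes, and values without it describe the other 9 heifers and are no test of pregnancy. The labels record it as non-pregnant and do not set it apart. That record could not be checked against the count tables, and every value for the non-pregnant group takes it as given.

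**Figure D2:**
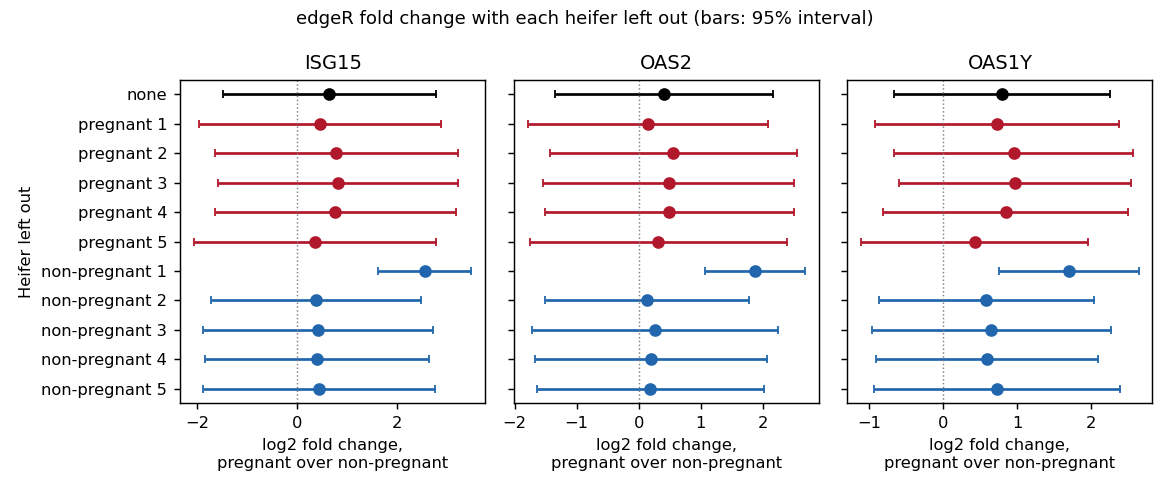
Log2 fold change of pregnant over non-pregnant heifers by edgeR for each gene, with all heifers (none) and with each heifer left out in turn; bars are 95% intervals. The interval lies above 0 for the 3 genes when non-pregnant heifer 1 is left out, where ISG15 reaches 2.55, and includes 0 in every other case.

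The spread between heifers was large for the 3 genes. From the lowest to the highest heifer, ISG15 spanned 26.4-fold, OAS2 21.4-fold and OAS1Y 9.24-fold. The SD of log2 CPM over the 10 heifers was 1.59 for ISG15, 1.33 for OAS2 and 1.12 for OAS1Y, against a median of 0.34 over all tested IDs. Only 0.614%, 1.02% and 2.23% of IDs had an SD as large. The biological coefficient of variation fitted by edgeR, which describes the spread within groups beyond counting error, was 95.8%, 81.7% and 67.9% for ISG15, OAS2 and OAS1Y, with a median of 25.3% over all IDs. Non-pregnant heifer 1 carried much of this: without it the coefficients were 40.8%, 37.7% and 41.8%, with a median of 25.2%. The SD of log2 CPM over the other 9 heifers, which includes the difference between groups, was 1.44, 1.17 and 1.06, with a median of 0.35.

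Within the pregnant group the levels also varied several-fold. Pregnant heifers 1 and 5 had the highest levels of each gene in their group, and heifers 2, 3 and 4 lay lower. The highest pregnant heifer exceeded the lowest 3.54-fold in ISG15, 2.93-fold in OAS2 and 3.86-fold in OAS1Y. In non-pregnant heifers the same span was 26.4-fold, 21.4-fold and 7.93-fold with heifer 1, and 2.48-fold, 3.56-fold and 2.27-fold over heifers 2 to 5.

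**Figure D3:**
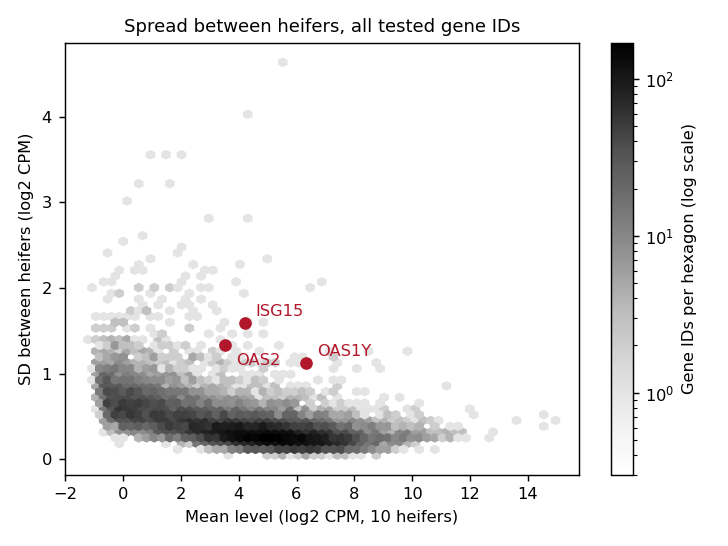
Standard deviation between the 10 heifers against mean level (both log2 CPM) for all tested gene IDs, shaded by the number of IDs, with the 3 genes as red points. ISG15 (SD 1.59), OAS2 (1.33) and OAS1Y (1.12) lie above most IDs of like level.

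The genes rose and fell together across heifers. Pearson's r of log2 CPM over the 10 heifers was 0.962 between ISG15 and OAS2 (permutation p = 1e-05, the smallest that the permutations can give; adjusted 3e-05 over 3 pairs). It was 0.970 between ISG15 and OAS1Y (permutation p = 3e-05, adjusted 4.5e-05) and 0.901 between OAS2 and OAS1Y (permutation p = 0.00052, adjusted 0.00052). Spearman's rho was 0.915, 0.988 and 0.891 for these pairs (permutation p = 0.00066, 1e-05 and 0.0012; adjusted 0.00099, 3e-05 and 0.0012). On the TMM scale, ISG15 and OAS1Y placed the heifers in the same order except at the top, where pregnant heifer 5 and non-pregnant heifer 1 changed places. With library totals alone as the scale, pregnant heifer 2 also fell below pregnant heifer 3 and non-pregnant heifer 5 in OAS1Y but not in ISG15. The rho of this pair was then 0.952. OAS2 kept non-pregnant heifer 1 highest and non-pregnant heifer 2 lowest, with a few exchanges between.

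The pairs with ISG15 remained correlated without the extreme heifers and within the groups, and the pair of OAS genes less firmly. Without non-pregnant heifers 1 and 2, the 2 farthest from the median in ISG15 and in OAS2, r was 0.932, 0.954 and 0.843 in the order above (exact permutation p = 0.00233, 0.000422 and 0.0097, n = 8). After each group's mean was subtracted, r was 0.953, 0.959 and 0.870, and rho was 0.758, 0.988 and 0.733 (permutation p of rho adjusted over 3 pairs 0.0201, 3e-05 and 0.0201). With the means subtracted and non-pregnant heifer 1 left out as well, a setting chosen after the data were seen, r was 0.808, 0.932 and 0.645 (permutation p adjusted over 3 pairs 0.0160, 0.00131 and 0.0632, n = 9). Subtracting a mean ties the values within a group, which the permutations ignore. The p after it are thus approximate and may be too small. The relation of OAS2 and OAS1Y thus did not pass 0.05 in that setting. Groups of 5 were too small for a correlation of their own. Among all IDs, OAS1Y ranked 3 and OAS2 ranked 5 of 14164 by r with ISG15, and ISG15 ranked 1 by r with OAS1Y and 4 by r with OAS2. OAS1Y ranked 19 by r with OAS2, and OAS2 ranked 27 by r with OAS1Y. The median r of all IDs with ISG15 was 0.01.

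**Figure D4:**
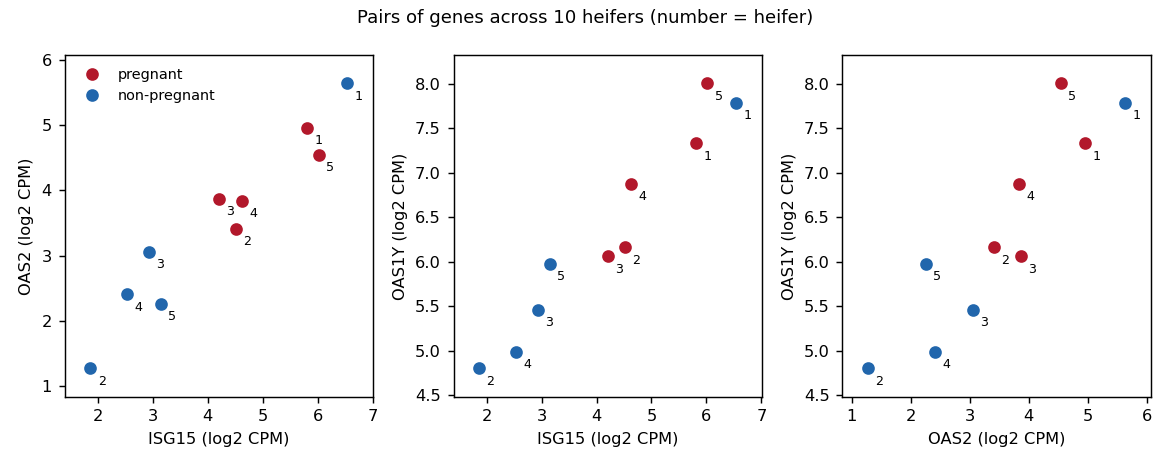
Log2 CPM of each pair of genes in the 10 heifers, with pregnant heifers in red and non-pregnant heifers in blue; numbers name the heifers. Points lie along 1 line in each panel (r from 0.901 to 0.970), with non-pregnant heifer 1 at the upper end beside pregnant heifers 1 and 5.

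OAS2 and OAS1Y are neighbours, and their spans overlap in the RefSeq gene table of the assembly ARS-UCD2.0, which is not the build of the counts. How reads in a shared stretch, or reads that match several copies of OAS1, were assigned is not given in the sources used here, so both OAS values are uncertain to that extent. ISG15 lies on another chromosome in that table and shares no overlap with either.

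Ratios between the counts of 2 genes in the same library need no scaling. They were examined after the levels had been seen. ISG15 over OAS1Y was 0.348, 0.317, 0.274, 0.210 and 0.252 in pregnant heifers 1 to 5. It was 0.423 in non-pregnant heifer 1 and 0.127, 0.172, 0.180 and 0.139 in non-pregnant heifers 2 to 5. The 6 heifers with the highest levels of both genes on the TMM scale were the pregnant ones and non-pregnant heifer 1. They had the highest ratios, without following the order of the levels among themselves. The ratio is not independent of the levels. Both genes rose together, and the SD of log2 CPM was larger for ISG15 (1.59) than for OAS1Y (1.12), so a ratio that rises with level follows from those values. The log2 ratio was higher by 0.56 in pregnant heifers (exact permutation p = 0.143, two-sided), and by 0.85 when non-pregnant heifer 1 was left out (exact permutation p = 0.0159, not adjusted for the 3 ratios examined). That heifer had the highest ratio of all and was left out after its values were seen. Without it the groups do not overlap in this ratio, so that p is no test of pregnancy.

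The other ratios overlapped more between the groups. ISG15 over OAS2 ranged from 1.26 to 2.78 in pregnant and from 0.914 to 1.88 in non-pregnant heifers, a log2 difference of 0.43 (exact permutation p = 0.175), or 0.54 when non-pregnant heifer 1 was left out (exact permutation p = 0.119). OAS2 over OAS1Y ranged from 0.0905 to 0.217 in pregnant and from 0.0743 to 0.225 in non-pregnant heifers, a log2 difference of 0.13 (exact permutation p = 0.754), or 0.32 when that heifer was left out (exact permutation p = 0.437). Over the 10 heifers, ISG15 over OAS2 spanned 3.04-fold, ISG15 over OAS1Y 3.33-fold and OAS2 over OAS1Y 3.02-fold. The levels spanned 26.4-fold for ISG15, 21.4-fold for OAS2 and 9.24-fold for OAS1Y.

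**Figure D5:**
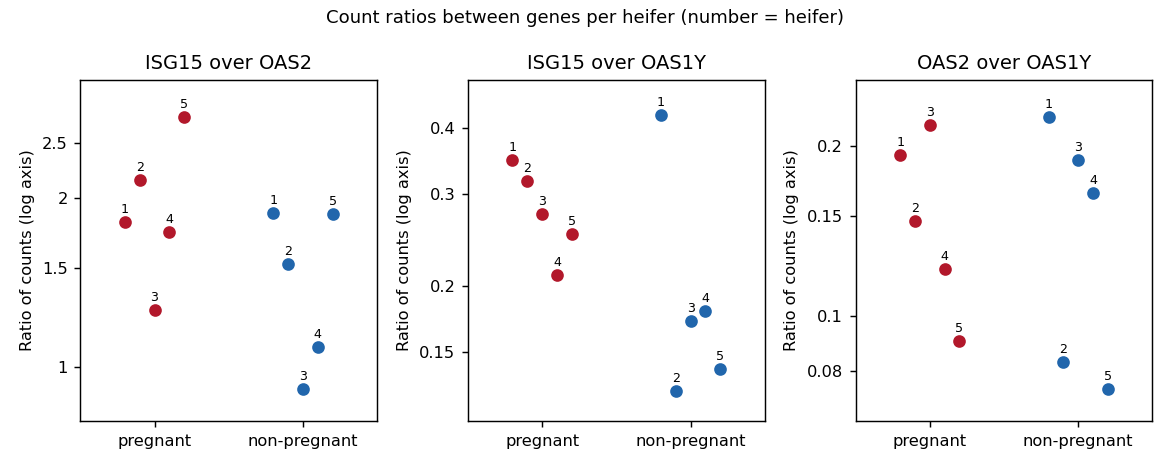
Ratio of the counts of each pair of genes per heifer (log axis), by group; numbers name the heifers. ISG15 over OAS1Y is 0.210 to 0.348 in pregnant heifers, 0.127 to 0.180 in non-pregnant heifers 2 to 5 and 0.423 in non-pregnant heifer 1.

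The relation of the levels to sequencing depth was positive for each gene but did not pass 0.05. Pearson's r of log2 CPM with the log2 library total was 0.583 for ISG15, 0.396 for OAS2 and 0.585 for OAS1Y, and Spearman's rho was 0.624, 0.333 and 0.612. No r or rho passed 0.05 (permutation p from 0.0607 to 0.350; adjusted from 0.101 to 0.350 over 6 relations), and without the 2 heifers of most extreme total r was 0.614, 0.4999 and 0.706. Without non-pregnant heifer 1, r with the library total was 0.478, 0.225 and 0.493 (exact permutation p = 0.192, 0.559 and 0.178, not adjusted). The first principal component of the other IDs, which held 24.7% of their variance, also went with the genes. The sign of this component was set so that it rises with the library total. The component left out these genes alone and kept IDs that vary with them, so it was not independent of their pattern. Its r was 0.721 for ISG15 (permutation p = 0.0142, adjusted 0.0425), 0.554 for OAS2 (permutation p = 0.0947, adjusted 0.114) and 0.812 for OAS1Y (permutation p = 0.00249, adjusted 0.0149), with rho of 0.685, 0.382 and 0.697 (permutation p = 0.0344, 0.280 and 0.0303; adjusted 0.101, 0.336 and 0.101). Pregnant heifer 5 and non-pregnant heifer 1 had the highest scores on it, and without them r was 0.454, 0.187 and 0.563 (exact permutation p = 0.269, 0.647 and 0.141, n = 8). Without non-pregnant heifer 1 alone, r was 0.655, 0.434 and 0.772 (exact permutation p = 0.0421, 0.249 and 0.00931, n = 9, not adjusted). The part of depth and of this component in the levels was not tested.

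Other IDs were ranked by their likeness to the pattern. The mean of the 3 genes' standardised log2 CPM correlated above 0.9 with 22 of the 14162 other tested IDs, or 0.155%, and below -0.9 with 10. At a bound of 0.8 there were 131 IDs above (0.925%) and 105 below -0.8. These IDs carry no gene name in the tables. The closest was ENSBTAG00000008471, with r = 0.978 over the 10 heifers. Its level was 275, 169, 153, 213 and 304 CPM in pregnant heifers 1 to 5, 524 CPM in non-pregnant heifer 1, and 81.9, 108, 84.1 and 114 CPM in non-pregnant heifers 2 to 5. It set the heifers apart in the same way as ISG15. The next was ENSBTAG00000003366 (r = 0.975), which ran from 62.5 CPM in non-pregnant heifer 2 to 172 CPM in non-pregnant heifer 1. The most opposed were ENSBTAG00000003601 (r = -0.944) and ENSBTAG00000012157 (r = -0.940), with at most 3.22 and 2.49 CPM, both highest in non-pregnant heifer 2 and lowest in non-pregnant heifer 1. In the latter they stood at 0.143 and 0.335 CPM, so the low end of both rests on few counts. These r were the extremes of 14162 values and are given as a description.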

How the data were processed

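White blood cell RNA of 10 heifers, 1 library each, was sequenced on an Illumina HiSeq instrument, per the labels' protocols. HISAT2, HTSeq, Trim Galore 0.4.4 and FastQC 0.11.7 appear in the submitters' processing notes, with the build ARS-UCD1.2; annotation release, strand setting and treatment of multiply mapped reads are not stated there. The authors deposited unnormalised counts of reads per Ensembl ID, per the file headers. No 2 libraries of a group agreed within sampling noise (lowest chi-square per degree of freedom 20.3).

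IDs were kept by filterByExpr (minimum count 10, minimum total 15), scaled by TMM and tested on the whole table with edgeR 4.0.16 (robust quasi-likelihood, Benjamini-Hochberg adjustment, threshold 0.05) in R 4.3.3. The script was tested on simulated data. Log2 CPM used a prior count of 2. Correlations used 100000 permutations for 10 heifers and all permutations for fewer. Alternatives were DESeq2 1.42.0, limma-voom (limma 3.58.1), other scalings, filters and dispersion, another prior count, and each heifer left out. The genes, lists and tests were chosen with earlier results of these data known. Besides the 3 genes, the 2 IDs most like and the 2 most opposed to their mean were named. Lists of interferon pathway genes and leukocyte markers, fixed by symbol, were not analysed here, because the RefSeq gene table used for symbols carried 0 Ensembl IDs. Replicate numbers only name heifers.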

Additional observations from a re-analysis of the deposited data

Results flagged for a closer look

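Dixon's rule for a value far from the rest was applied to 18 sets of 5 values (CPM, log2 CPM and log2 count ratios of the 3 genes). By chance alone it marks about 1 in 20 sets of normally distributed values, and CPM need not be distributed so. It marked 5, all of them non-pregnant heifer 1, and the sets share heifers and genes. ISG15 was 93.2 CPM in that heifer against 3.53 to 8.77 CPM in the other non-pregnant heifers (gap over range 0.942). On the log2 scale it was 6.54 against 1.86 to 3.15 (0.725). OAS2 was 49.6 CPM against 2.31 to 8.24 CPM (0.875), and OAS1Y was 221 CPM against 27.8 to 63.0 CPM (0.817). On the log2 scale neither OAS gene was marked. The log2 ratio of ISG15 over OAS1Y was -1.24 against -2.98 to -2.48 (0.712, just past the critical value).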

How the results depend on the processing

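The log2 fold changes of the 3 genes stayed above 0 and without a call in all 17 alternatives each. With single heifers left out they ranged from 0.35 to 2.55 for ISG15, 0.14 to 1.87 for OAS2 and 0.43 to 1.70 for OAS1Y, the upper ends without non-pregnant heifer 1. The difference in mean log2 CPM ranged from 1.24 to 2.41, 0.78 to 1.87 and 0.81 to 1.58. It passed an exact permutation p of 0.05 only without that heifer (0.00794, 0.00794 and 0.0238, unadjusted). For ISG15 and OAS2 this is the smallest p possible with 9 heifers. That heifer was singled out by these same levels, so the p without it are no test of pregnancy. The 0 IDs called became 5 with DESeq2; the cause was not tested. The count stayed at 0 in the other 6 alternatives with all heifers and with each heifer left out (0 to 0). The 3 correlations kept their sign in 16 alternatives each, with r from 0.808 to 0.975, 0.932 to 0.977 and 0.645 to 0.924. They kept their call except that of OAS2 and OAS1Y in a setting chosen after seeing the data. With group means subtracted and non-pregnant heifer 1 left out, r was 0.645 (adjusted permutation p = 0.0632, approximate, fewer heifers). No paired analysis was possible because the labels link no heifers between groups. Counting error was at most 16.2%, against coefficients of variation between heifers of 67.9% to 95.8%, or 37.7% to 41.8% without non-pregnant heifer 1.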
